A study of Drosophila melanogaster with 11 samples.

Results

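The genes described here are 3 members of the ELAV family of neuronal RNA-binding proteins (elav, fne and Rbp9) together with bru3, ps and nerfin-1. They were chosen by name, as the rows whose FlyBase identifier carries one of these 6 symbols, and all 6 were found among the 17753 gene rows of every library. The name given to the group does not cover nerfin-1, which encodes a zinc-finger transcription factor and not an RNA-binding protein. The other 5 genes encode RNA-binding proteins.

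Polyadenylated RNA was sequenced in bulk from whole Drosophila melanogaster embryos, which the methods of the study describe as wild-type Oregon-R. Embryos were collected in 4 windows after egg deposition, namely 2–4 h (3 libraries), 14–14.5 h (2 libraries), 14–17 h (4 libraries) and 17–17.5 h (2 libraries). No treatment or transgene is named for these samples, and the methods describe biological replicates as independent collections on different days. The 14–17 h window includes 14–14.5 h and ends where 17–17.5 h begins, and it was compared with 2–4 h only.

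ELAV proteins bind U-rich and AU-rich stretches of RNA through RNA recognition motifs, and in neurons they govern the choice of exons and of polyadenylation sites. In Drosophila, ELAV is mostly nuclear and is widely used as a marker of postmitotic neurons, whereas FNE (found in neurons) and RBP9 are its paralogs, and RBP9 also acts in the female germline. Bruno 3 belongs to the Bruno/CELF family, and Pasilla is the fly ortholog of the mammalian NOVA splicing factors. Nerfin-1 is known for its roles in axon guidance and in keeping neurons differentiated.

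The 6 genes differ widely in layout (dm6 coordinates). elav (FBgn0260400) lies on chromosome X from 509235 to 523226, minus strand, with 4 annotated transcripts whose 3′ UTRs run from 556 to 8557 bp. fne (FBgn0086675) is on chromosome X from 12917477 to 12950417, plus strand, and has 11 transcripts. Rbp9 (FBgn0010263) is on 2L from 2954762 to 2968434, plus strand, and has 9.

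Both genes with the most transcripts have long introns. bru3 (FBgn0264001) extends on 3L from 13521907 to 13803400, minus strand, with 18 transcripts, and only 4.55% of its span of 281494 bp is exonic. ps (FBgn0261552) lies on 3R from 9417940 to 9455500, plus strand, with 18 transcripts and 36.4% of its span in exons. nerfin-1 (FBgn0028999), on 3L from 909112 to 912319, plus strand, has 1 transcript and no intron.

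Expression is given as the deposited TPM, in which the estimated count of a gene is divided by an effective length and scaled to the library total. For these genes that length was the whole span of the gene, introns included. The deposited TPM therefore serves here to compare 1 gene between libraries, and levels of different genes were compared as TPM recomputed by exonic length. The total estimated count of a library was 14472809 in replicate 2 at 2–4 h and 29917410 to 38904916 in the other 10. The lowest count of any of the 6 genes was 54, for Rbp9 in that shallow library.

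At 2–4 h, fne, Rbp9, bru3 and ps were far below their later levels. fne was at 0.81, 0.52 and 0.73 TPM in replicates 1 to 3 at 2–4 h. The 14–14.5 h libraries stood at 54.1 and 51.5 TPM, the 14–17 h libraries at 37.2, 37.7, 32.9 and 36.1 TPM, and the last 2 libraries, of 17–17.5 h, at 37.4 and 36.6 TPM. Every late library was above every early one, and both 14–14.5 h libraries were above all other libraries.

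Rbp9 had the same order of window means. Its deposited TPM was 0.73, 0.62 and 0.59 in the early embryo, rising to 18.5 and 18.2 by 14–14.5 h. The 4 libraries at 14–17 h were at 14.3, 13.9, 13.1 and 14.6 TPM and those at 17–17.5 h at 14.1 and 15.3 TPM, so these last windows overlapped. For bru3 the deposited values were 0.11, 0.12 and 0.10 TPM at 2–4 h. They were 3.51 and 3.17 TPM in the 14–14.5 h libraries, 2.55, 2.50, 2.17 and 2.48 TPM in those of 14–17 h, and 3.04 and 3.08 TPM in the last window, so 14–17 h was the lowest of the late windows for bru3.

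For ps the deposited TPM was 8.13, 7.48 and 7.68 in the early embryo at 2–4 h. It reached 197 and 187 TPM by 14–14.5 h. The 14–17 h libraries were at 138, 126, 107 and 131 TPM and those of 17–17.5 h at 85.9 and 87.0 TPM. The 3 late windows did not overlap for ps, with 14–14.5 h highest and 17–17.5 h lowest.

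nerfin-1 went the other way. Its TPM was 21.8, 20.1 and 24.7 in the early libraries, then 19.8 and 18.4 by 14–14.5 h. The 14–17 h libraries had 13.4, 11.2, 9.67 and 12.1 TPM, and the 17–17.5 h libraries 5.93 and 4.83. In that order, the libraries of neighbouring windows did not overlap. For elav, the deposited TPM was 30.0, 30.9 and 30.7 in the early libraries and 58.5 and 53.1 by 14–14.5 h. It was 34.7, 33.8, 27.5 and 31.4 in the libraries of 14–17 h, and 30.0 and 27.0 in the latest window. Both 14–14.5 h libraries of elav were above all others.

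**Figure D1:**
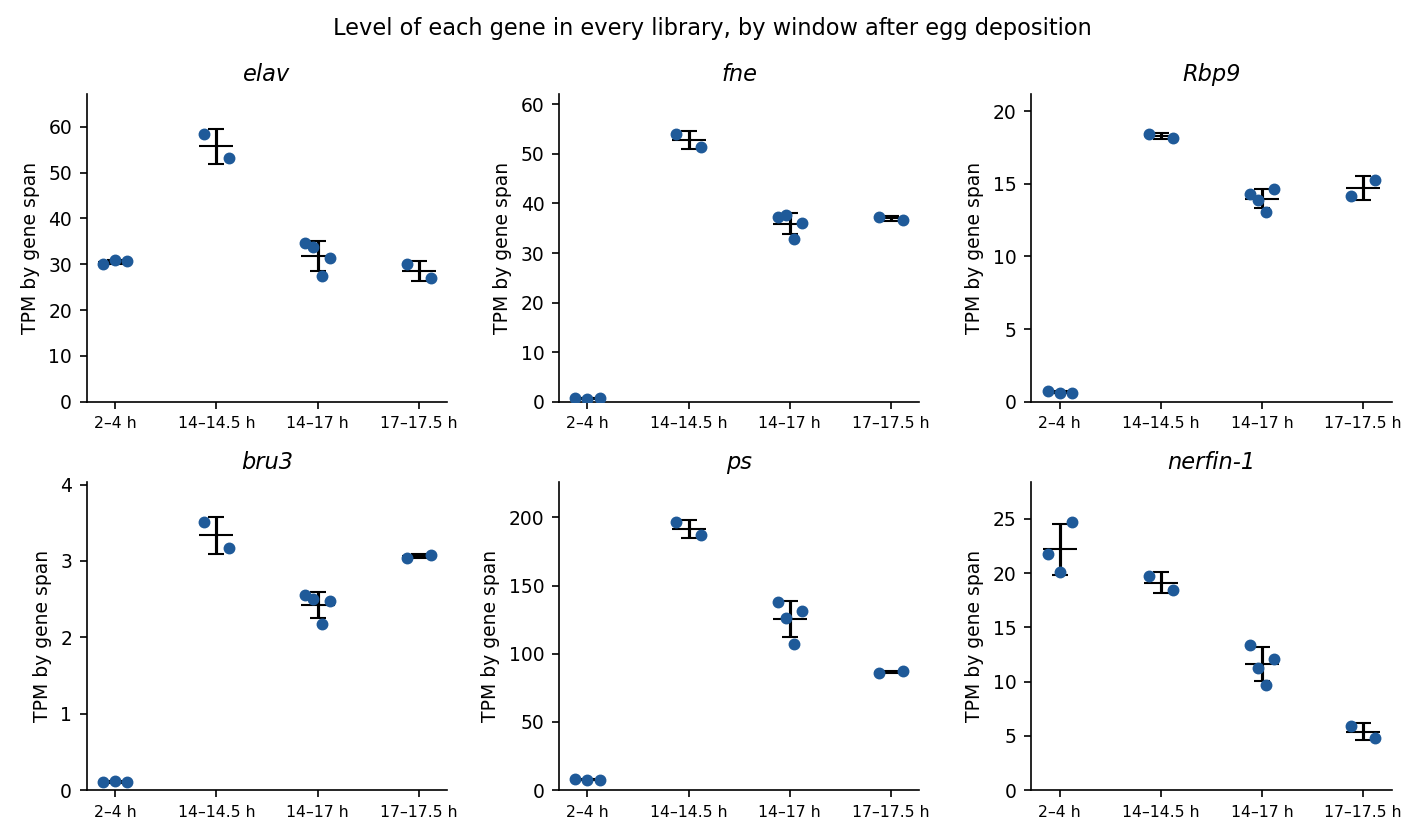
Deposited TPM (vertical axis, per gene span) of elav, fne, Rbp9, bru3, ps and nerfin-1 in each of the 11 libraries (points) by window after egg deposition (horizontal axis), with the mean and SD of the window. fne, Rbp9, bru3 and ps are near the bottom of the axis at 2–4 h and high in all 8 late libraries, elav is high at 14–14.5 h only, and nerfin-1 is lowest at 17–17.5 h, at 4.83 and 5.93 TPM.

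The first comparison asked which of these genes differed between the early embryo and the late embryo of 14–17 h. Relative to 2–4 h, fne was 51.0-fold higher, Rbp9 21.2-fold, bru3 21.8-fold and ps 16.1-fold, and nerfin-1 was 1.93-fold lower. Of the 6 genes, 4 rose and 1 fell, in a comparison where 48.2% of the 11623 genes tested were called higher and 42.4% lower with an adjusted p under 0.05 (edgeR quasi-likelihood F-test, Benjamini-Hochberg over all genes tested), or 90.6% in either direction. The share of members called is thus near that of all genes, and the sizes of the changes carry the description.

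On the log2 scale, fne rose by 5.67 (SE 0.19, edgeR adjusted p = 1.7e-09), Rbp9 by 4.41 (SE 0.13, 8.0e-10), bru3 by 4.44 (SE 0.10, 4.5e-10) and ps by 4.01 (SE 0.14, 1.8e-09). Those changes placed the 4 genes between the 77.3rd and the 84.0th percentile of all log2 fold changes tested. nerfin-1 fell by 0.95 (SE 0.13, 6.4e-05). The change of elav, 0.053 (SE 0.09, adjusted p = 0.57), did not pass the threshold, and its early and late libraries overlapped once counts were scaled to the library total. The median change of all genes tested was 0.19, against 4.21 for the 6 genes.

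At 14–14.5 h, the same early libraries were compared with 2 late ones, so this comparison and the next are not independent of the first. Here 5 of the 6 genes were higher, while 46.7% of 11556 genes tested were called higher, 43.3% lower and 90.0% in either direction (edgeR). The log2 change was 6.22 (SE 0.22) for fne, 4.79 (SE 0.14) for Rbp9, 4.90 (SE 0.12) for bru3, 4.61 (SE 0.14) for ps and 0.86 (SE 0.11, adjusted p = 7.3e-05) for elav. nerfin-1 was at −0.24 (SE 0.13, adjusted p = 0.12) and did not pass the threshold, although both late libraries lay below all 3 early ones.

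Between 2–4 h and 17–17.5 h, 5 genes were called higher and nerfin-1 lower, with 49.2% of 11633 genes tested called higher, 42.3% lower and 91.4% in either direction (edgeR). The log2 changes were 6.11 (SE 0.14) for fne, 4.89 (SE 0.11) for Rbp9, 5.18 (SE 0.11) for bru3 and 3.86 (SE 0.08) for ps. nerfin-1 fell by 1.67 (SE 0.11, adjusted p = 1.1e-05). These sizes depended on the scaling, which the standard errors do not cover. With total counts alone, fne, Rbp9, bru3 and ps were at 3.47 to 5.72 and nerfin-1 at −2.05. The median of all genes then moved from 0.27 to −0.12. In that scaling bru3 rose by 4.79 here and by 4.85 to 14–14.5 h. Over the fits without 1 replicate, nerfin-1 was at −1.95 to −1.75, a larger fall in each. The call for elav, at 0.28 (SE 0.06, adjusted p = 0.0041), sat at the median of all genes, 0.27, and its libraries overlapped. This call was lost without any 1 of the 3 early libraries or without replicate 2 at 17–17.5 h (0.059 to 0.13), and scaling by total counts alone turned its direction (−0.10).

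Levels in the early libraries were also set beside a list of 9 late muscle and cuticle genes, which serve as a trace of older embryos. Their summed level was 133 CPM (estimated counts scaled to a common library total) in replicate 1, 30.9 CPM in replicate 2 and 34.7 CPM in replicate 3 at 2–4 h, with Mlp84B alone at 0 counts in all 3, against 11217 to 18474 CPM in the late libraries. The early values of fne in the same order were 11.5, 7.54 and 10.2 CPM. Those of Rbp9 (4.27, 3.73 and 3.43 CPM) and ps (132, 124 and 124 CPM) were also highest in replicate 1. bru3 was highest in replicate 2 (13.4, 15.5 and 12.3 CPM). Without replicate 1 at 2–4 h, the log2 change to 14–17 h was 5.83 for fne, 4.54 for Rbp9 and 4.46 for bru3 (edgeR). The part of this trace in the early levels was not tested.

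The comparison of 14–14.5 h with 17–17.5 h asked how the genes moved within late embryogenesis. Of the 6 genes, 4 fell (nerfin-1, ps, elav and fne) and 0 rose, also at an unadjusted p under 0.05 and with DESeq2, while 32.0% of 11267 genes tested were called higher, 31.5% lower and 63.6% in either direction (edgeR). nerfin-1 fell by 1.62 on the log2 scale (SE 0.11, adjusted p = 5.8e-05), to the 6.05th percentile of all changes tested, and ps fell by 0.94 (SE 0.06, 4.0e-05), to the 11.1th percentile. elav fell by 0.76 (SE 0.08, 0.00038) and fne fell by 0.30 (SE 0.06, 0.0068), a call that was lost with all 11 libraries in 1 fit (−0.30, edgeR adjusted p = 0.18). Rbp9, at −0.10 (SE 0.07, adjusted p = 0.27), and bru3, at 0.087 (SE 0.08, adjusted p = 0.38), did not pass the threshold.

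With all libraries scaled by total counts, 2975 genes were called higher and 4409 lower between these windows, against 3607 and 3554 with TMM factors. That scaling moved the median of all genes from −0.04 to −0.18. The 4 falls were called under both, Rbp9 was then called lower at −0.25 (adjusted p = 0.016), and the sign of bru3 turned, to −0.058. In RNA from whole embryos, fewer cells of a type and less RNA per cell cannot be told apart.

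**Figure D2:**
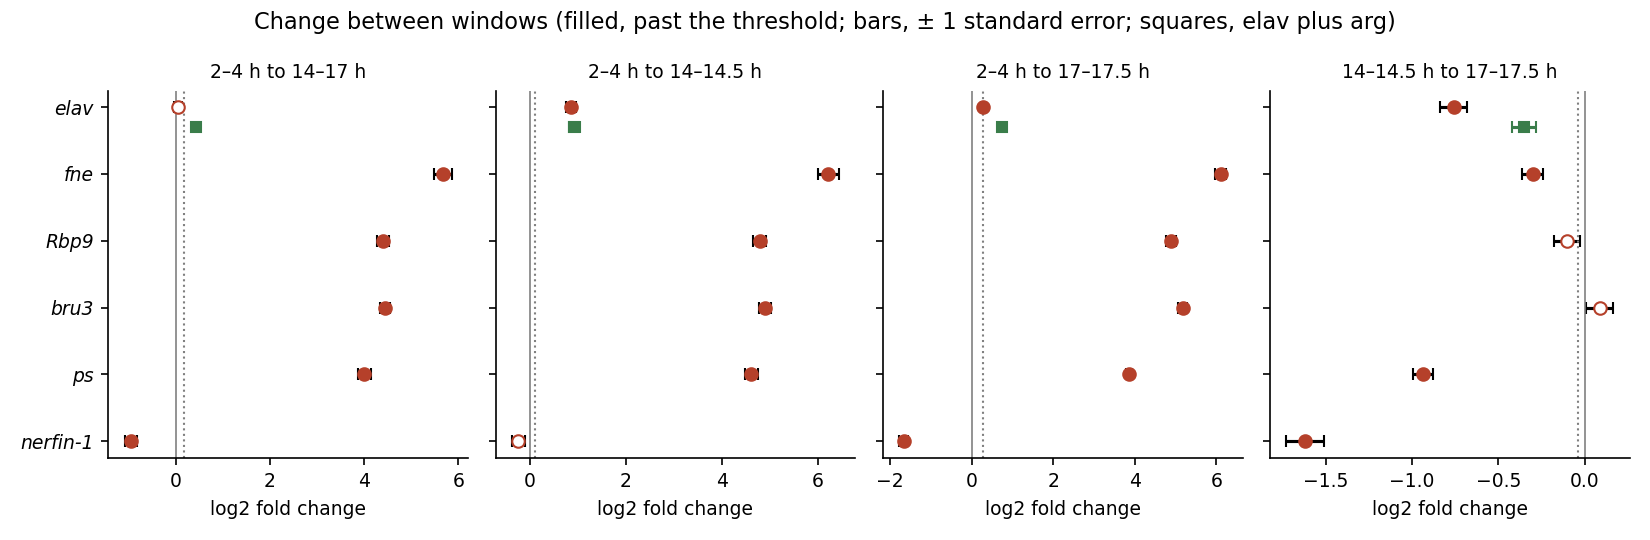
Log2 fold change (horizontal axis, edgeR) of each gene in the 4 comparisons, later window over earlier, with bars of 1 standard error. Filled circles passed an adjusted p of 0.05 and open circles did not, squares are elav and arg counted as 1 gene, the solid line is 0 and the dotted line is the median of all genes tested. fne, Rbp9, bru3 and ps lie between 3.86 and 6.22 in the 3 panels that start at 2–4 h, and no gene passed above 0 from 14–14.5 h to 17–17.5 h.

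The values of elav depend on a neighbour. The gene arg, which encodes arginase, lies on the opposite strand and shares 13792 bp of its span with elav, which is 98.6% of elav. Only 200 bp of elav are outside arg, while 4802 bp of arg are outside elav, and the exons of both genes overlap by 673 bp. The gene on the other side, svr, ends 162 bp away.

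The counts were assigned by whole gene span, so a read in the shared span matches both genes and was divided between them by estimation, also where it lies in an exon of elav alone. No source used here states that the libraries keep the strand of the RNA, so reads within the 673 bp shared by exons cannot be told apart. The estimated counts of elav were whole in 0 of 11 libraries (within 0.001), and the sum of elav and arg was whole in 10 of 11 (within 0.02). Counts of Rbp9, which overlaps the exons of Ts on the other strand by 142 bp, and of nerfin-1 were whole in all 11. Those of fne and of ps were whole in 1 library each and those of bru3 in 3. Counts that are not whole were thus not particular to elav, and their source in fne, ps and bru3 was not tested. bru3 holds 4 non-coding RNA genes, to which almost no counts were assigned.

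Of the summed counts of both genes, arg took 4.22% ± 0.35 (SD, n = 3) in the early embryo, and 8.66% ± 0.96 (SD, n = 2) by 14–14.5 h. In the libraries of 14–17 h its share was 26.8% ± 2.36 (SD, n = 4), and in the latest window it was 31.1% ± 2.25 (SD, n = 2). The summed level was 192 ± 4.57 CPM (SD, n = 3), 349 ± 20.2 CPM (SD, n = 2), 252 ± 10.5 CPM (SD, n = 4) and 248 ± 9.84 CPM (SD, n = 2) in the same order. The share assigned to arg was lower in every library of 2–4 h and 14–14.5 h than in any library of 14–17 h or 17–17.5 h.

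Counted as 1 gene, a choice made after the values were seen, elav and arg rose by 0.44 on the log2 scale between 2–4 h and 14–17 h (SE 0.08, edgeR adjusted p = 0.00043). They rose by 0.93 to 14–14.5 h (SE 0.11, 4.2e-05) and by 0.75 to 17–17.5 h (SE 0.06, 1.9e-05). From 14–14.5 h to 17–17.5 h the sum fell by 0.35 (SE 0.07, edgeR adjusted p = 0.0063), which is less than the 0.76 of elav alone. The peak at 14–14.5 h was present both in elav and in the sum, whereas the absence of a call between 2–4 h and 14–17 h was not.

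**Figure D3:**
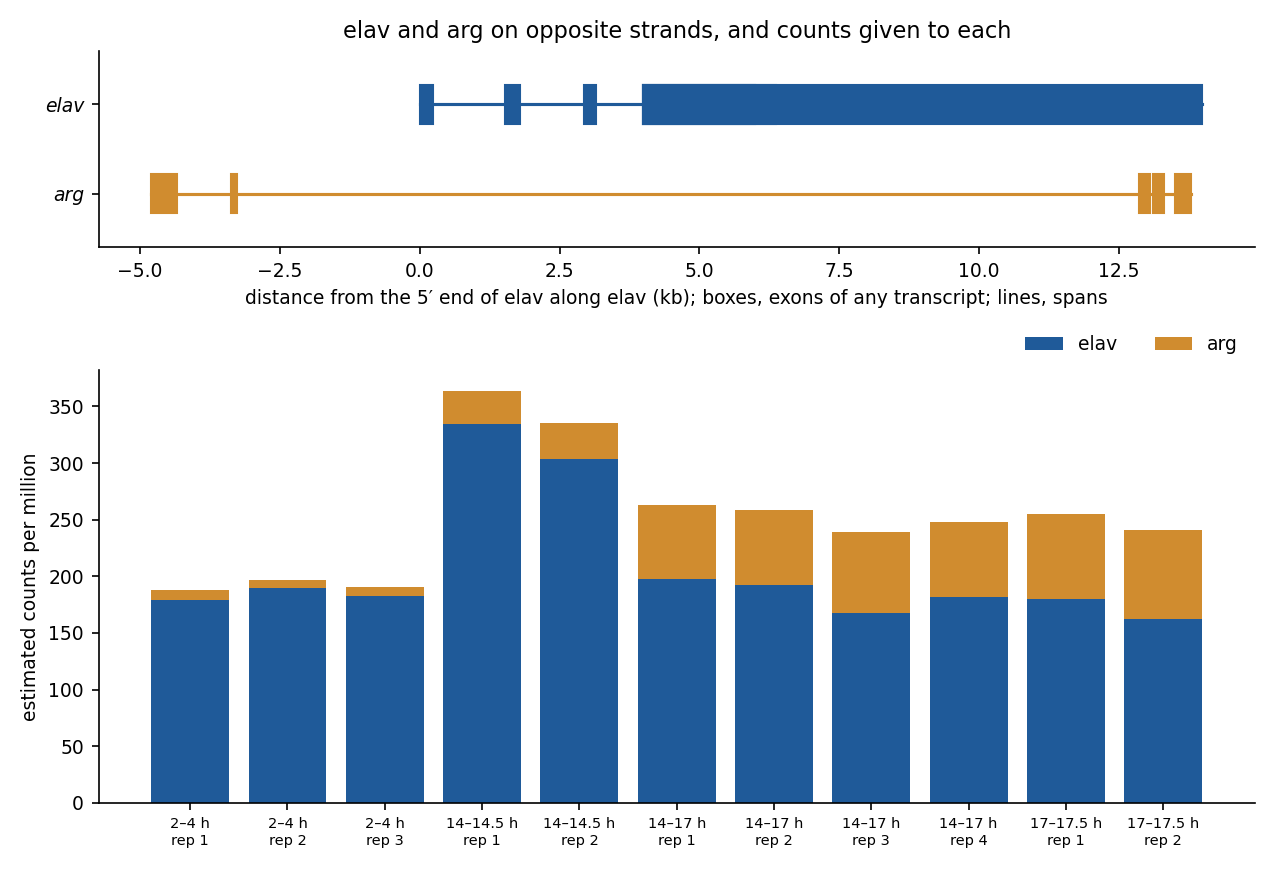
Upper panel, exons (boxes) and spans (lines) of elav and arg along the distance from the 5′ end of elav in kb, with the genes on opposite strands. Lower panel, estimated counts of elav and arg in CPM, stacked for each of the 11 libraries, in which arg takes 4.22% of the mean sum at 2–4 h and 31.1% at 17–17.5 h.

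Levels of different genes were compared per exonic length. Counts were assigned over whole spans, so any reads from introns raise this measure, and bru3 has the smallest exonic part (4.55% of its span). elav is counted without arg here, and at 14–17 h the sum of both was 252 CPM against 185 CPM for elav alone. The order of genes with arg added to elav was not computed. At 2–4 h, elav was highest at 28.4 ± 0.65 TPM by exonic length (SD, n = 3). nerfin-1 (15.7 ± 1.51) and ps (15.3 ± 0.57) came next with overlapping libraries, then bru3 (1.76 ± 0.20) and fne (1.70 ± 0.36), also overlapping, and Rbp9 was lowest at 0.788 ± 0.09 (SD, n = 3 for each).

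At 14–14.5 h this order had changed, with ps at 359 ± 15.0, fne at 125 ± 5.29, bru3 at 50.2 ± 4.01, elav at 49.4 ± 3.75, Rbp9 at 21.2 ± 0.39 and nerfin-1 at 12.9 ± 0.75 TPM by exonic length (SD, n = 2 for each). bru3 and elav overlapped there, and the other neighbours did not. The order at 14–17 h was the same, from ps at 236 ± 24.4 down to nerfin-1 at 7.88 ± 1.05 (SD, n = 4 for each), and the libraries of bru3 (36.7 ± 2.49) and elav (28.3 ± 2.71) no longer overlapped. At 17–17.5 h ps was at 164 ± 1.28, fne at 88.3 ± 1.37, bru3 at 46.5 ± 0.34, elav at 25.5 ± 1.92, Rbp9 at 17.2 ± 0.93 and nerfin-1 at 3.67 ± 0.53 TPM by exonic length (SD, n = 2 for each).

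Among 13831 protein-coding genes, ps stood at the 61.2nd percentile at 2–4 h and at the 97.5th at 14–14.5 h by this measure. fne moved from the 43.9th to the 93.1st, and nerfin-1 from the 61.6th to the 55.2nd and then to the 37.5th at 17–17.5 h. The choice of length mattered most for bru3, whose deposited TPM was the lowest of the 6 genes in every window, at 2.43 ± 0.17 (SD, n = 4) at 14–17 h against 36.7 by exonic length.

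**Figure D4:**
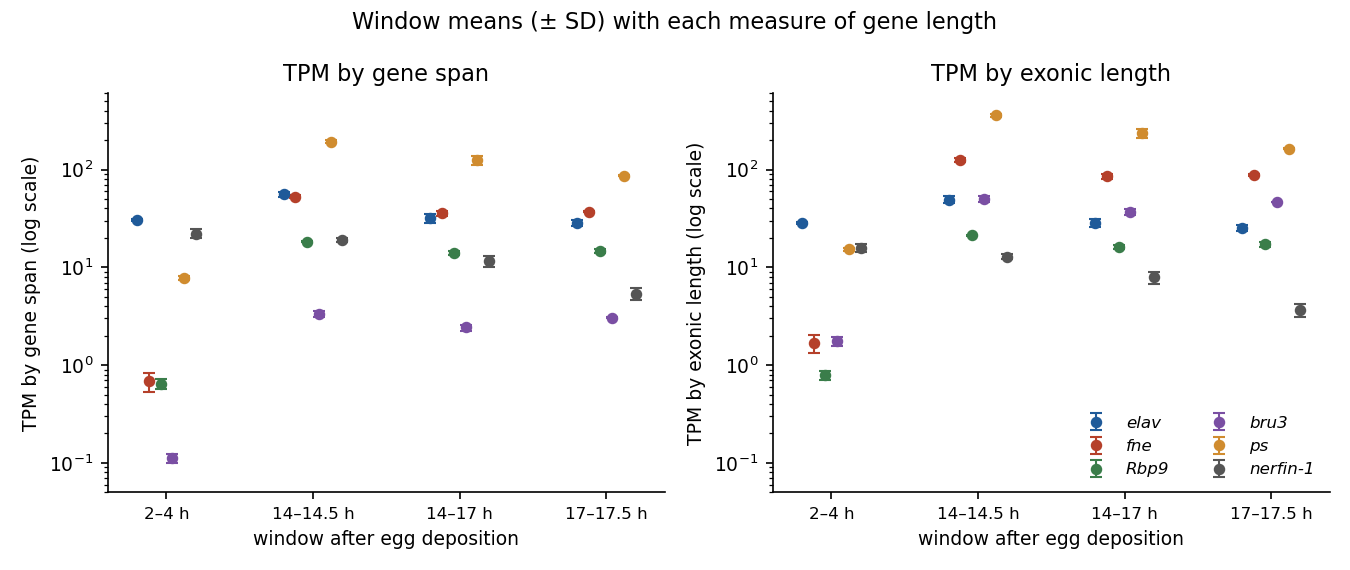
Mean and SD of TPM over the libraries of each window (vertical axes, log scale) for the 6 genes, by gene span as deposited (left) and by exonic length (right). bru3 is the lowest gene in every window on the left, and on the right it lies close to elav in the 3 late windows, at 36.7 TPM against 28.3 for elav at 14–17 h. elav is drawn without the counts assigned to arg.

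The study defined late-induced genes as more than 5-fold higher at 14–17 h than at 2–4 h with p under 0.05, a late TPM above 10 and an early TPM below 2. fne and Rbp9 met all of these with the deposited TPM and the edgeR test. bru3 missed the late level only, and met it by exonic length. ps missed on its early level of 7.76 ± 0.33 TPM (SD, n = 3), and elav and nerfin-1 missed on the fold as well.

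Within the ELAV family, the balance of the 3 genes differed between windows, with elav counted without the counts assigned to arg. elav made up 91.9% ± 1.39 (SD, n = 3) of the summed TPM by exonic length at 2–4 h, fne 5.50% ± 1.21 and Rbp9 2.55% ± 0.30. At 14–17 h elav was at 21.8% ± 0.86 (SD, n = 4), fne at 65.7% ± 0.53 and Rbp9 at 12.5% ± 0.54. No library of one window overlapped the other for any of the 3 shares, and the exact permutation test over libraries gave p = 0.0571 for each (two-sided), which is the smallest p that 3 against 4 libraries allow and is above 0.05.

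At 14–14.5 h the shares were 25.3% ± 0.70 for elav, 63.8% ± 0.37 for fne and 10.9% ± 0.33 for Rbp9 (SD, n = 2 for each). At 17–17.5 h they were 19.5% ± 1.11, 67.4% ± 0.17 and 13.2% ± 0.95 (SD, n = 2 for each). By exonic length, fne thus had the highest share of the family in all 8 late libraries and elav in all 3 early ones. The summed level of the family was 30.9 TPM by exonic length in the early embryo, and 195, 130 and 131 TPM in the late windows, in the order 14–14.5 h, 14–17 h and 17–17.5 h. By gene span this order was reversed at 14–14.5 h, where elav was above fne in both libraries (43.9% ± 0.98 against 41.6% ± 0.47, SD, n = 2), while fne was above elav in all libraries of 14–17 h and 17–17.5 h. In the late windows, in the same order, arg took 8.66%, 26.8% and 31.1% of the summed counts of elav and arg. Shares with arg added to elav were not computed. The order of elav and fne by span and the lower elav shares of the later windows may therefore depend on that split.

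For bru3, fne and Rbp9, the mean level at 14–17 h was below those at 14–14.5 h, which lies inside it, and at 17–17.5 h, which follows it. bru3 was at 287 ± 12.3 CPM (SD, n = 4) at 14–17 h against 389 ± 28.1 and 374 ± 3.85 (SD, n = 2 for each) at 14–14.5 h and 17–17.5 h. The level of fne was 496 ± 14.8 CPM against 717 ± 24.9 and 527 ± 6.62 CPM, and that of Rbp9 79.4 ± 2.58 against 102 ± 1.07 and 86.2 ± 4.90 CPM, where the libraries of 14–17 h and 17–17.5 h overlapped. In deposited TPM the libraries of fne overlapped between these windows too, at 32.9 to 37.7 against 36.6 to 37.4 TPM. The share of gene values that were not whole was 21.5% to 22.1% in the 14–17 h libraries and 19.7% to 19.9% in those of both narrow windows. The labels name no batch, and any difference between sets of libraries cannot be told apart from the window here. In replicates 1 to 3 at 2–4 h that share was 21.4%, 19.2% and 21.4%. A difference in library sets between 2–4 h and the narrow windows was not tested.

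Other RNA-binding proteins of the nervous system or of the same families were taken as a list of 20 genes. Between 2–4 h and 14–17 h, 12 of the 20 rose, 3 fell and 5 did not pass the threshold. Over all genes tested, 48.2% were called higher and 42.4% lower. The median log2 change of the list was 0.98 against 0.19 for all genes tested. Rbp6, a member of the Musashi family, rose by 6.62 (SE 0.20, edgeR adjusted p = 1.1e-09), from 4.59 ± 1.13 to 451 ± 28.6 CPM (SD, n = 3 and 4). mbl, which encodes the splicing factor Muscleblind, rose by 5.03 (SE 0.19, edgeR adjusted p = 3.5e-09). Among the falls, lark changed by −2.34 (SE 0.11) and ssx, a paralog of Sex-lethal, by −2.13 (SE 0.11).

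The Bruno paralogs of bru3 differed from it in size. bru2 rose by 2.64 (SE 0.11, edgeR adjusted p = 4.8e-09), and bru1, at 0.36 (SE 0.19, adjusted p = 0.092), did not pass the threshold. Both were named after their values were seen, as paralogs of a member. From 14–14.5 h to 17–17.5 h, 3 of the 20 rose, 8 fell and 9 did not pass, with a median of −0.18 against −0.04 for all genes. The shares called over all genes were 32.0% higher and 31.5% lower. mub (0.42, SE 0.06) and Rbp6 (0.30, SE 0.08) had the largest rises. Fmr1, the fly ortholog of the gene affected in fragile X syndrome, fell by 1.90 (SE 0.09, edgeR adjusted p = 1.2e-05), and Syp fell by 1.44 (SE 0.15, adjusted p = 0.00038).

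RNAs that have been described as targets of ELAV formed a list of 9. Between 2–4 h and 14–17 h, 4 rose, 2 fell and 3 did not pass the threshold, against 48.2% of all genes higher and 42.4% lower. The median log2 change was 0.04, below that of all genes (0.19). Nrg, which encodes the adhesion protein Neuroglian, rose by 2.07 (SE 0.11, edgeR adjusted p = 3.4e-08), and mei-P26 rose by 1.95 (SE 0.10, 2.7e-08). arm, which encodes the fly β-catenin, fell by 1.73 (SE 0.11, edgeR adjusted p = 1.0e-07), and brat fell by 0.94 (SE 0.09, 3.6e-06).

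Between the narrow late windows, 1 of the 9 targets rose and 3 fell, against 32.0% of all genes higher and 31.5% lower. brat rose by 0.57 (SE 0.07, edgeR adjusted p = 0.00091). Adar, the RNA-editing enzyme, fell by 0.57 (SE 0.06, 0.00028), and the transcription factor gene ewg fell by 0.56 (SE 0.06, 0.00037). These counts are per gene and carry no information on the isoforms that ELAV is known to control. Adar, Imp and pum stand in both lists.

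A list of 5 transcription factor genes of neuronal differentiation, which includes the paralog of nerfin-1, was split. Between 2–4 h and 14–17 h, 3 rose and 2 fell, against 48.2% of all genes higher and 42.4% lower. That paralog, nerfin-2, had 0 counts in every 2–4 h library, where 3 counts correspond to 0.0944 to 0.207 CPM, and was at 2.48 ± 0.48 CPM (SD, n = 4) at 14–17 h. onecut rose by 3.41 (SE 0.12, edgeR adjusted p = 2.2e-09), whereas lola fell by 1.18 (SE 0.10, 1.3e-06) and pros fell by 1.14 (SE 0.11, 3.4e-06). From 14–14.5 h to 17–17.5 h, 2 fell and 0 rose (edgeR, also 0 at an unadjusted p under 0.05). Over all genes, 31.5% were called lower and 32.0% higher. The falls were −0.37 for pros and −0.20 for lola, against −1.62 for nerfin-1.

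Cell type markers were read in the same fits. Of 12 neuronal markers, 11 rose between 2–4 h and 14–17 h and 1, Syx1A (0.19, adjusted p = 0.058), did not pass. Of all genes, 48.2% were called higher and 42.4% lower. The median of the neuronal markers was 6.63. VGlut, the vesicular glutamate transporter, rose by 8.33 (SE 0.19, edgeR adjusted p = 4.5e-10), and the synaptic vesicle protein gene Syt1 rose by 7.67 (SE 0.20, 5.5e-10). The rises of fne, Rbp9, bru3 and ps, at 4.01 to 5.67, were below this median.

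Between 14–14.5 h and 17–17.5 h, 10 of the 12 neuronal markers rose, 1 fell and 1 did not pass, with a median of 0.57. There 32.0% of all genes were called higher and 31.5% lower. ChAT, which makes acetylcholine, rose by 1.27 (SE 0.05, edgeR adjusted p = 6.3e-06) and the sodium channel gene para by 0.96 (SE 0.07, 6.9e-05), while CadN fell by 0.33 (SE 0.06, 0.0047). None of the 6 genes rose in that comparison, in which their median was −0.53. The difference between the genes and the neuronal markers was not tested.

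Most neuroblast markers fell, as nerfin-1 did. Of 8, 6 fell and 2 rose between 2–4 h and 14–17 h, against 42.4% of all genes lower and 48.2% higher. The median was −1.95. l(1)sc (−7.97, SE 0.47) and mira (−4.66, SE 0.16) had the largest falls, whereas vnd rose by 3.05 and insc by 0.97. In each 14–14.5 h library and in replicates 1 and 3 at 14–17 h, 1 of the 8 markers was at 0 counts. The size of a fall that ends near 0 counts is not exact. Of the 7 that could be tested between the narrow late windows, all 7 fell, against 31.5% of all genes lower and 32.0% higher. Among them, insc was at −2.90 (SE 0.10) and mira at −1.33 (SE 0.10). The summed level of the neuroblast markers was 1105 ± 34.2 CPM (SD, n = 3) in the early embryo. It came to 241 ± 4.06 CPM (SD, n = 2) by 14–14.5 h, to 214 ± 18.5 CPM (SD, n = 4) in the 14–17 h libraries and to 82.4 ± 8.51 CPM (SD, n = 2) in the latest window. The part of these cells in the levels of nerfin-1 was not tested.

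Of 7 glial markers, 5 rose, 1 fell (gcm, −3.13) and 1 did not pass between 2–4 h and 14–17 h, with a median of 3.01. The shares of all genes were 48.2% higher and 42.4% lower. alrm had 0 counts in every 2–4 h library and was at 119 ± 7.84 CPM (SD, n = 4) at 14–17 h, and Eaat1, a glutamate transporter gene, rose by 7.13 (SE 0.13). From 14–14.5 h to 17–17.5 h, 1 rose, 3 fell and 3 did not pass, against 32.0% of all genes higher and 31.5% lower. The median was −0.70. Eaat1 rose by 0.82 (SE 0.05), and wrapper (−1.09, SE 0.09) and moody (−0.90, SE 0.05) had the largest falls.

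**Figure D5:**
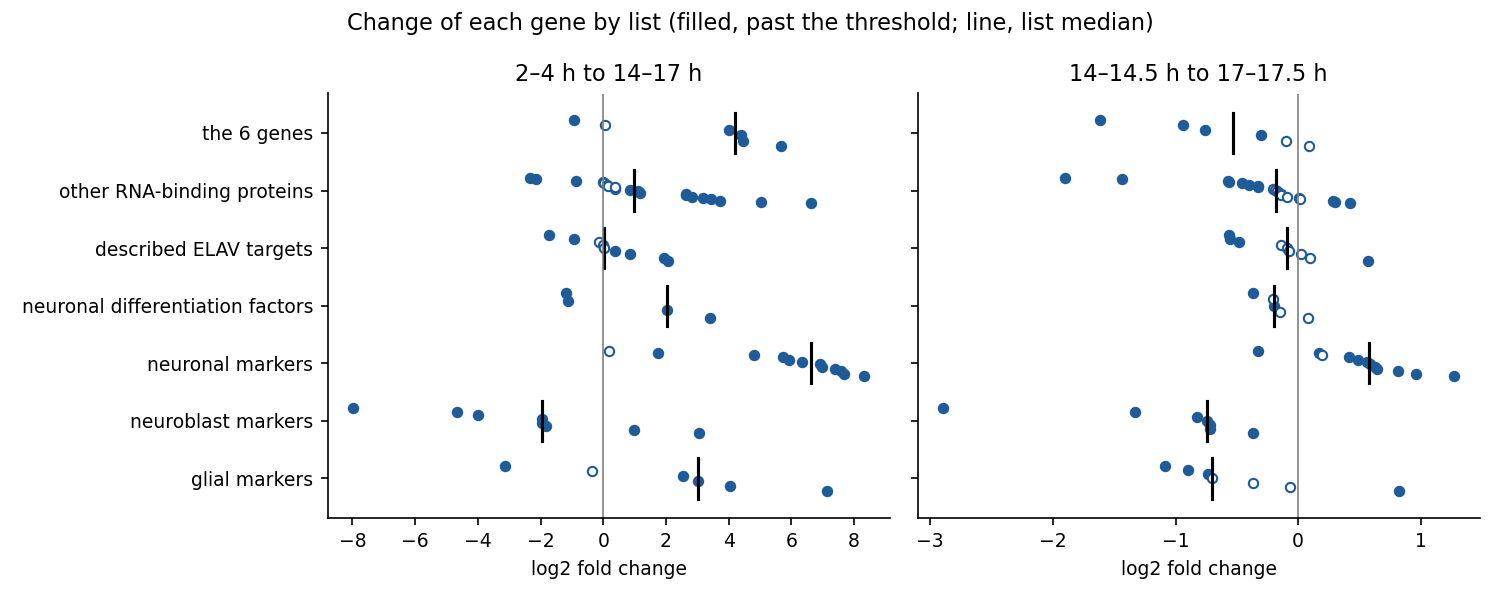
Log2 fold change (horizontal axis, edgeR) of each gene of the 6 and of the 6 lists, between 2–4 h and 14–17 h (left) and from 14–14.5 h to 17–17.5 h (right), with filled circles past an adjusted p of 0.05, open circles not past it and a black line at the list median. Genes with 0 counts in a whole group (alrm and nerfin-2 on the left) are not drawn but enter the median at their bound. The neuronal markers have their median at 6.63 on the left and 0.57 on the right, where the median of the 6 genes is −0.53.

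Genes of most similar pattern were sought by Pearson's r over the 11 libraries, on log2 of CPM plus 1. Libraries fall into an early and a late set, so any gene that differs strongly between them gives a high r, and r is given as a description. For fne the closest were CG33523, chas and mspo, each with an r of 0.999. The closest to Rbp9 were Cdk5alpha, trv and Drl-2, and those closest to bru3 were dysc, CG31176 and CG8500. ps was closest to Cpr49Ae, Fmo-1 and Eip78C, the first of which encodes a cuticle protein.

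Of 12081 genes, 2261 had an r above 0.95 with fne, 2271 with Rbp9, 2249 with bru3 and 1890 with ps. Far fewer followed the other members. For elav, 8 genes passed 0.95, led by CG33230 (0.973), asRNA:CR43820 (0.971) and CG43799 (0.965). For nerfin-1 there were 33, led by SppL (0.985), siz (0.984) and Veneno (0.983). Among the 6 genes, fne, Rbp9, bru3 and ps correlated with each other at 0.982 to 0.999, and elav correlated with each of the other 5 at 0.318 to 0.433. In all of these values elav was counted without arg, and r with arg added was not computed. The pattern of elav may therefore depend on the split of counts between elav and arg.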

How the data were processed

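Bulk mRNA-seq of 11 libraries was used, grouped by the window and replicate that GEO's labels give. Reads were quantified by the authors with kallisto on dm6 (version not given in the sources used here), which gives the deposited estimated count of each gene. The deposited TPM divides it by effective length. CASAVA 1.8.2 is named in the submitters' processing notes. File lengths were compared with the dm6 annotation (Ensembl). Columns of other samples numbered 0.

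After rounding to integers, estimated counts entered edgeR 4.0.16 in R 4.3.3 (filterByExpr, TMM factors, quasi-likelihood F-test, two-sided, Benjamini-Hochberg, adjusted p of 0.05), with only the libraries of the 2 windows compared in each fit. Each standard error is the size of the log2 change over the root of F. TPM by exonic length was recomputed from merged exons. Scripts were tested on simulated data. Python 3.11.15, pandas 2.3.3, numpy 2.4.6, scipy 1.17.1 and matplotlib 3.10.9 were used. Floors of 3 counts cover counting error only, because PCR copies of a molecule are counted as separate reads. The symbol aret was matched to bru1.

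All 6 genes were named in every comparison. For each, the 3 genes of highest r were named, and from each list at most 2 rises and 2 falls with the largest change past the threshold. Members and lists were chosen with earlier results of these data known. Alternatives were DESeq2 1.42.0, RLE factors, total counts, no filter on low counts, all 11 libraries in 1 fit, the replicate number as a block, leaving out each replicate, and gene length. Counting elav and arg as 1 gene was added after seeing the data.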

Additional observations from a re-analysis of the deposited data

How the results depend on the processing

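Of 270 fold changes of the 6 genes under the alternatives listed above, 253 kept their direction and their side of the threshold, as did 18 of 24 results throughout. The exceptions were small changes, and the cause was not tested. Between 2–4 h and 14–17 h, elav turned to −0.028 with all 11 libraries in 1 fit and to −0.044 without replicate 1 at 14–17 h (−0.044 to 0.063 over the fits without 1 replicate). From 2–4 h to 17–17.5 h, elav turned to −0.10 with total counts and lost its call at 0.012 without a filter, at 0.088 with all 11 libraries and in 4 of the 5 fits without 1 replicate (0.059 to 0.25 over the 5). From 14–14.5 h to 17–17.5 h, bru3 turned to −0.058 with total counts and Rbp9 to 0.022 without replicate 1 at 17–17.5 h (−0.19 to 0.022 over the fits without 1 replicate), and fne lost its call with all 11 libraries (−0.30, edgeR adjusted p = 0.18). From 2–4 h to 14–14.5 h, nerfin-1 was called lower, making 1 member lower against 0, with total counts (−0.30), without a filter (−0.28) and without replicate 2 at 2–4 h (−0.36).

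Shares of the ELAV family, with elav counted without arg, moved with gene length. By span, elav was at 95.8%, 43.9%, 38.9% and 35.5% at 2–4 h, 14–14.5 h, 14–17 h and 17–17.5 h, fne at 2.15%, 41.6%, 44.0% and 46.1%, and Rbp9 at 2.04%, 14.4%, 17.1% and 18.4%. Deviations of same-numbered libraries correlated at −0.05 to 0.20, and those of other-numbered ones at −0.20 to 0.14. In a window of 2 libraries the deviations mirror each other, so comparisons with such a window cannot show whether replicate numbers paired the samples. Between 2–4 h and 14–17 h, same-numbered libraries were at 0.060, −0.053 and 0.091, and other-numbered ones at −0.088 to 0.079. The libraries were treated as unpaired. A replicate block gave 5559 genes higher and 4824 lower between 2–4 h and 14–17 h (5606 and 4928 with no block), and elav from 2–4 h to 17–17.5 h was at 0.27 (edgeR adjusted p = 0.060). Fits that leave 1 library in a window assume that it varies like the others.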
